A study of Mus musculus with 8 samples.

Results

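The genes described here are lysosomal hydrolases, lysosomal membrane proteins and the subunits of the vacuolar proton pump (V-ATPase) in mouse bone marrow cells cultured as macrophages. They were taken as 25 named symbols (8 cathepsins, legumain, glycosidases, lipid enzymes and carriers, membrane proteins and progranulin) plus every symbol starting with Atp6v. Of the 49 symbols examined, 43 had at least 10 UMIs (unique molecular identifiers, which mark single captured RNA molecules) and are the members, of 32249 genes listed in any of the tables. The other 6 (Atp6v1b1, Atp6v1c2, Atp6v1e2, Atp6v1fnb, Atp6v0a4 and Atp6v0e2) had 2 to 6 UMIs. A filter on low counts left 42 of the 43 members in the tests, the exception being the pseudogene Atp6v0c-ps1.

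Marrow from the hind limbs of C57Bl/6J mice, labelled male and aged 10 weeks, was grown for 3 days in M-CSF, the growth factor that drives macrophage development. The cells were then left for 24 hours without addition (control) or with 4 µg/mL CYR61, a secreted matricellular protein also called CCN1, and single-cell RNA was captured on the HIVE platform. There were 4 control and 4 CYR61 libraries, and all cells of both groups had received M-CSF. The labels do not say whether libraries came from separate animals or cultures, so p-values measure the spread between these libraries, which may be technical.

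Lysosomes break down protein, glycan, lipid and nucleic acid taken up by phagocytosis or delivered by autophagy, and macrophages hold many of them. Their hydrolases work at acid pH, which the V-ATPase sets: the cytosolic V1 sector burns ATP and the membrane V0 sector passes protons. Many lysosomal genes share an E-box in their promoters that the transcription factors TFEB, TFE3 and MITF bind, known as the CLEAR element.

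Promoter windows from RefSeq on GRCm38.p6, from 250 bases before to 50 bases after the start, were found for 31 of the 43 members. The E-box CACGTG, which reads the same on both strands, lay in the windows of 11 of these 31 (35.5%) and of 8.09% of 27025 genes in all. Its extended form TCACGTGA, which contains the shorter motif, lay in 7 of 31 (22.6%: Atp6v0d1, Atp6v0e, Atp6v1a, Ctsa, Ctsd, Gla and Mcoln1) and in 1.12% of all genes. The stretches below show motif holders of each role group other than the lipid group, in which no matched window held the motif, then the 2 members with the highest fitted fold changes among those matched, Ctsc and Npc2, whose windows held no CACGTG. Capitals mark the E-box or its extended form. The stretches of Ctsc and Npc2 are the 60 bases before the gene start in GENCODE, while motif positions were counted from RefSeq starts. These starts can differ, and the printed stretches of Ctsl, Lgmn, Ctsd, Ctsa, Mcoln1 and Atp6v1a lie inside the GENCODE gene. In 31 of 37 member windows, bases after the start were found near the start of a GENCODE transcript of that gene.
Ctsl, chr13:64370739-64370768, minus strand: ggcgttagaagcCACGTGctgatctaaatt
Lgmn, chr12:102439124-102439153, minus strand: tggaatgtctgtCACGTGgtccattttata
Ctsd, chr7:142387908-142387937, minus strand: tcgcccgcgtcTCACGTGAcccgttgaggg
Ctsa, chr2:164833749-164833772, plus strand: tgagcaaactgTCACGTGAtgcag
Gla, chrX:134601215-134601244, minus strand: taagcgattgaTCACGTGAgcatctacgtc
Gla, chrX:134601182-134601211, minus strand: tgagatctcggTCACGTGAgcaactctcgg
Mcoln1, chr8:3500462-3500491, plus strand: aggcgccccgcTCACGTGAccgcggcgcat
Lamp1, chr8:13159091-13159160, plus strand: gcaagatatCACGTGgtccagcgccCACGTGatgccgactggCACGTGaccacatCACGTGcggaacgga
Atp6v1a, chr16:44139373-44139402, minus strand: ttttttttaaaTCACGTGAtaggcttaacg
Atp6v0b, chr4:117887334-117887375, minus strand: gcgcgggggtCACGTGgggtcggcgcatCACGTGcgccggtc
Ctsc, chr7:88278025-88278084, plus strand: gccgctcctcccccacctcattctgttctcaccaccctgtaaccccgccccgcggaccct
Npc2, chr12:84773153-84773212, minus strand: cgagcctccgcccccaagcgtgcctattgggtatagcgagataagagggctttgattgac
Lamp1 held 4 E-boxes within 70 bases and Atp6v0b held 2 within 42 bases, all of the shorter form. A match is a description of these letters, not a measured binding site.

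**Figure D1:**
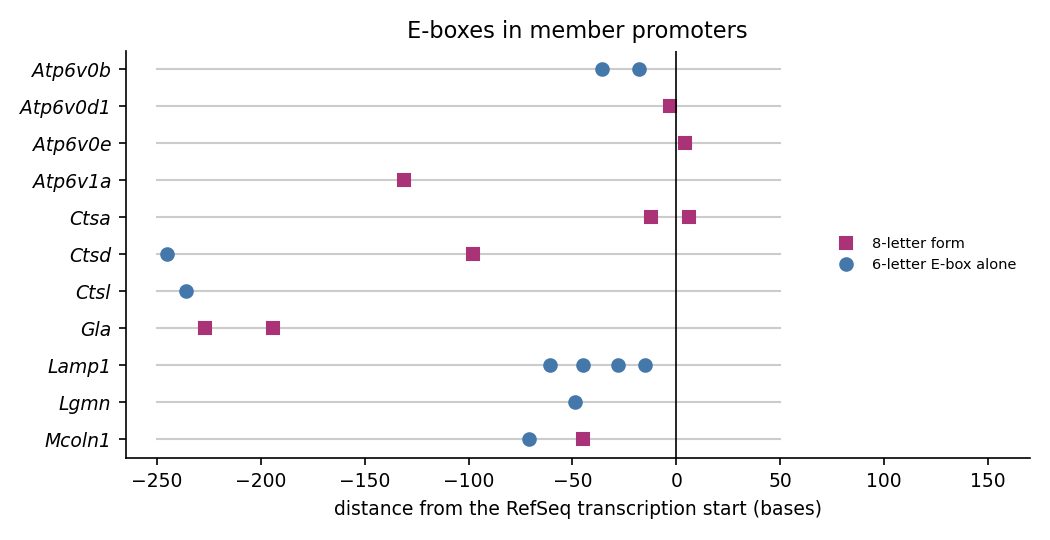
Positions of the E-box in the 11 members whose promoter windows held one. Each grey line is a window from 250 bases before to 50 bases after the RefSeq start; squares mark the 8-letter form and circles the 6-letter form alone, by distance in bases from the start to the first base of the motif. The 4 circles of Lamp1 lie close together before the start.

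A barcode counted as a cell if it had 300 or more detected genes and no more than 20% mitochondrial UMIs. A barcode often recurred in several tables of a date stamp, so each was kept only in the table where it had most UMIs. This left 9196 home-library cells of 12848, 2057 in control and 7139 with CYR61, and 6405 of them had a barcode listed in no other table of their date. Control library 2 stood apart: 75.5% of the UMIs of its kept cells lay in barcodes that a CYR61 table held at a higher UMI count. In the other libraries, 0.448% to 25.1% of such UMIs lay in barcodes with a higher count in a table of the opposite group. UMIs per library ran from 842528 to 13933610, and the median per cell from 789 to 1595. The median mitochondrial share of a cell ran from 4.55% in CYR61 library 3 to 14.3% in control library 3. Its relation to the member levels was not tested. Although all animals were labelled male, control libraries 2 and 3 and CYR61 libraries 1 and 2 held Xist at 1152 to 1249 CPM, while the others held Y-linked genes at 323 to 399 CPM and Xist at up to 1.16 CPM. They are called Xist and Y libraries here, and each group has 2 of each. CPM are UMIs per 1000000 UMIs of a library's home-library cells.

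All 10 macrophage markers had counts, while erythroid, T or NK, mast and dendritic cell markers summed to at most 7.49 CPM in any library, with Hba-a1, Hbb-bs, Cd209a and Ccr7 among those at 0. The macrophage sum was 3069 to 3305 CPM in control and 3918 to 5015 CPM with CYR61, so the groups did not overlap. Fcgr1 and C1qa were the 2 of 10 macrophage markers past the test, both higher with CYR61. Neutrophil markers (12 of 12 with counts) summed to 637 to 1997 CPM in control and 661 to 3666 CPM with CYR61. Osteoclast markers, mostly the member Atp6v0d2, summed to 1957 to 2731 CPM in control and 1819 to 2679 CPM with CYR61. Megakaryocyte or platelet markers summed to 372 to 875 CPM in control and 586 to 1359 CPM with CYR61. For monocyte markers the sums were 22.6 to 217 CPM and 69.1 to 125 CPM. For B cell markers they were 8.97 to 36.8 CPM in control and 2.61 to 6.57 CPM with CYR61. Whether the macrophage markers have a part in the member differences below was not tested.

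In every library the members made up a large share of the RNA, between 4.22% and 5.69% of UMIs. Their summed level was 54236, 42201, 48320.1 and 47256 CPM in control libraries 1 to 4 and 50009, 48569, 56877 and 52429 CPM in CYR61 libraries 1 to 4. The group means were 48003 ± 4938 CPM in control and 51971 ± 3638 CPM with CYR61 (SD, n = 4), and the ranges overlapped. The 25 members outside the V-ATPase summed to 41282 ± 4727 CPM in control and 45953 ± 2996 CPM with CYR61 (SD, n = 4). The V-ATPase members summed to 6721 ± 408 CPM in control and 6018 ± 643 CPM with CYR61 (SD, n = 4), which is a ratio of 0.895 of CYR61 to control where the other members had a ratio of 1.11. Neither sum separated the groups. A summed level alone cannot tell a change in the mix of cells from a change in level per cell. Shares per cell are given below.

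The gene test was edgeR's quasi-likelihood test on counts summed per library, with p-values adjusted by the Benjamini-Hochberg method over all 10422 genes tested and called at an adjusted p under 0.05. It called 0 of the 42 tested members, where it called 1.16% of all genes (117 higher, 1.12%, and 4 lower, 0.0384%). At an unadjusted p under 0.05, 6 members were higher (Ctsc, Ctsh, Npc2, Ctsz, Gla and Grn) and 0 lower, against 3.45% and 2.74% of all genes. DESeq2 called 3 members, Ctsc, Ctsh and Npc2, all higher, where it called 1.53% of all genes higher and 0.24% lower. The same 3 were the members whose 4 CYR61 libraries all lay above the 4 control libraries, an arrangement seen in 2.87% of all genes; Atp6v1b2 was the sole member with the reverse arrangement, seen in 2.25%. Fitted log2 fold changes were above 0 for 29 of 42 members and for 47.3% of all genes.

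The hydrolases and membrane proteins on one side and the proton pump on the other had medians of opposite sign. Of the 25 members outside the V-ATPase, 23 had a log2 fold change above 0 and 2 below, with a median of 0.21. Of the 17 V-ATPase members tested, 6 were above 0 and 11 below, with a median of -0.08. Over all genes tested the median was -0.02. The V-ATPase median was above 0 with no filter on low counts (0.035) and in the Y libraries alone (0.042). These medians are descriptions, and no test was made of the difference between them.

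**Figure D2:**
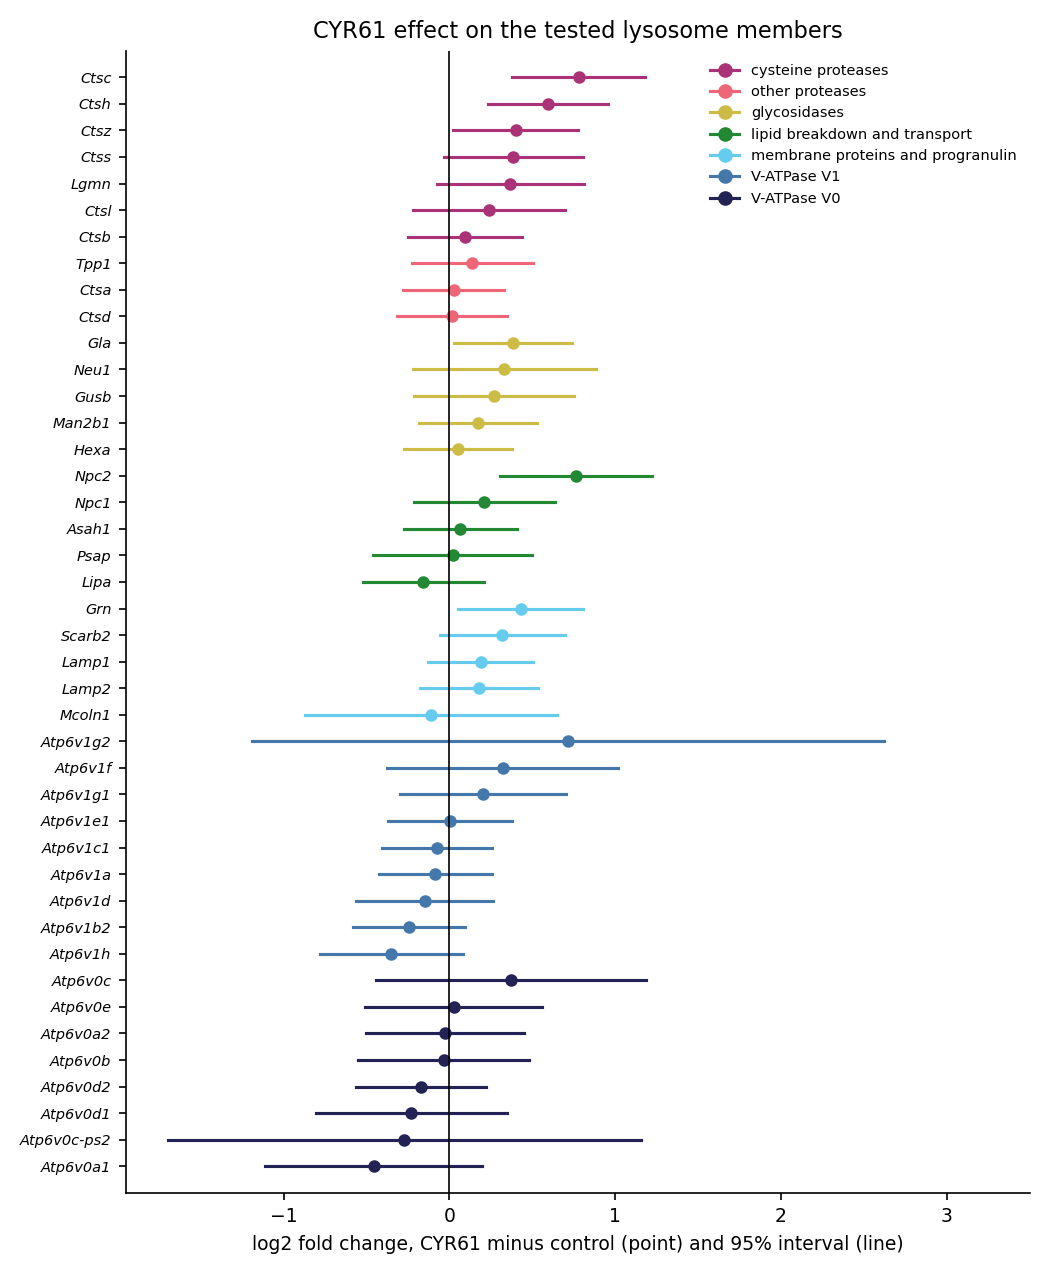
Fitted log2 fold change (CYR61 minus control, x axis) of each of the 42 tested members, ordered within role groups that share a colour. Points are edgeR estimates and lines are 95% intervals, from 4 libraries per group. Members outside the V-ATPase lie mostly right of 0, with Ctsc at 0.78 and Npc2 at 0.76 the furthest, and most V-ATPase subunits lie left of 0 or on it.

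Because the Xist and Y libraries differed in many genes, the split was also fitted as a term beside CYR61. With that term 3 members were called higher with CYR61 (Ctsc, Ctsh and Npc2) and 1 lower (Atp6v0a1), against 1.91% and 0.307% of all genes called in those directions. DESeq2 with the same term called 7 members: Ctsc, Ctsh, Ctsz, Lgmn, Npc2 and Grn higher, and Atp6v0a1 lower, where it called 2.68% of all genes higher and 0.998% lower. Values from the edgeR fit with the term are given below for these 7 genes. On barcodes listed in 1 table of their date, the edgeR fit with the term called Lgmn and Npc2 higher and 0 members lower, against 1.85% and 0.29% of all genes, and no longer Ctsc (adjusted p = 0.146), Ctsh (adjusted p = 0.092) or Atp6v0a1 (adjusted p = 0.338).

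Cysteine proteases cut proteins inside lysosomes and, in antigen-presenting cells, trim antigens and the invariant chain. All 7 had a fitted log2 fold change above 0, with a median of 0.38, and none passed the test without the split term. Cathepsin C (Ctsc, chr7:88278085-88310888 on mm10), which activates granule serine proteases, had 138, 187, 180.4 and 112 CPM in control libraries 1 to 4 and 262, 229, 276 and 267 CPM in CYR61 libraries 1 to 4. The 4 CYR61 libraries were alike and each lay above the highest control library. Its mean was 154 ± 35.7 CPM in control against 258 ± 20.5 CPM with CYR61 (SD, n = 4). The fitted log2 fold change was 0.78 (SE 0.18, 95% interval 0.38 to 1.18, adjusted p = 0.09005), and with the split as a term 0.79 (SE 0.15, adjusted p = 0.00913).

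Cathepsin H (Ctsh, chr9:90054152-90076089), an aminopeptidase, had 434, 323, 336 and 428 CPM in control libraries 1 to 4 and 565, 514, 601 and 571 CPM in CYR61 libraries 1 to 4. The groups again did not overlap, and the smallest gap lay between CYR61 library 2 and control library 1. Its log2 fold change was 0.59 (SE 0.17, 95% interval 0.23 to 0.95, adjusted p = 0.227), and 0.61 (SE 0.12, adjusted p = 0.0109) with the split as a term. Both genes depended on how shared barcodes were treated. Over all kept cells, with every barcode counted in each table that lists it, the log2 fold changes were 0.42 (adjusted p = 0.9999) for Ctsc and 0.34 (adjusted p = 0.9999) for Ctsh. With the barcodes listed in 1 table of their date they were 0.61 (adjusted p = 0.596) and 0.56 (adjusted p = 0.697). Without control library 2 they were 0.87 (adjusted p = 0.1102) and 0.52 (adjusted p = 0.434).

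Cathepsin Z (Ctsz), a carboxypeptidase, had 992, 701, 689.6 and 879 CPM in control libraries 1 to 4 and 974, 974, 1053 and 1219.5 CPM in CYR61 libraries 1 to 4, and control library 1 lay above the 2 lowest CYR61 libraries. For Ctsz the log2 fold change was 0.40 (SE 0.17, 95% interval 0.024 to 0.77, adjusted p = 0.763), and 0.41 (SE 0.11, adjusted p = 0.0883) with the split as a term. Cathepsin S (Ctss), the protease that clears the invariant chain from MHC class II, was the member with the highest level per length (below). It had 6364, 4971, 6498 and 5254 CPM in control libraries 1 to 4 and 6540.5, 5986, 9712 and 7319.7 CPM in CYR61 libraries 1 to 4, with CYR61 library 3 well above the rest. In the test Ctss had a log2 fold change of 0.38 (SE 0.19, 95% interval -0.036 to 0.81, adjusted p = 0.8498). Legumain (Lgmn), an asparaginyl endopeptidase that matures several cathepsins, had a log2 fold change of 0.37 (SE 0.20, 95% interval -0.078 to 0.81, adjusted p = 0.9098), and of 0.38 (SE 0.12, adjusted p = 0.1502) with the split as a term.

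Cathepsins B and L are the main broad endopeptidases of the group. Ctsb had 9750.1, 7494, 8794 and 8106 CPM in control libraries 1 to 4 and 9649.8, 9658, 7969 and 8463 CPM in CYR61 libraries 1 to 4, and the groups overlapped almost fully. The test gave Ctsb a log2 fold change of 0.094 (SE 0.16, 95% interval -0.25 to 0.44, adjusted p = 0.9999). For Ctsl the values were 3985, 3094, 3241 and 3652 CPM in control libraries 1 to 4 and 3108, 3524, 5807 and 3712 CPM in CYR61 libraries 1 to 4, and CYR61 library 3 alone lay above the control range. The log2 fold change of Ctsl was 0.24 (SE 0.21, 95% interval -0.22 to 0.70, adjusted p = 0.988).

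The other proteases had fold changes close to 0, with a median of 0.02 over 3 genes. Cathepsin D (Ctsd), an aspartic protease, had 6251, 5011, 5536 and 5933 CPM in control libraries 1 to 4 and 5629, 5162, 6009 and 5700.1 CPM in CYR61 libraries 1 to 4. A log2 fold change of 0.013 (SE 0.15, 95% interval -0.32 to 0.34, adjusted p = 0.9999) was fitted, so the interval leaves out a change of the size fitted for Ctsc. Cathepsin A (Ctsa), a carboxypeptidase that also shields other lysosomal enzymes, varied little: 665, 651, 654 and 651 CPM in control libraries 1 to 4 and 682, 619, 621 and 691 CPM in CYR61 libraries 1 to 4. It had a log2 fold change of 0.025 (SE 0.14, 95% interval -0.28 to 0.33, adjusted p = 0.9999). Tripeptidyl peptidase 1 (Tpp1) had 308, 268, 266 and 324 CPM in control libraries 1 to 4 and 281, 290.4, 380.3 and 309 CPM in CYR61 libraries 1 to 4 and a log2 fold change of 0.14 (SE 0.17, 95% interval -0.23 to 0.50, adjusted p = 0.9999). The 3 control ranges overlapped those with CYR61.

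**Figure D3:**
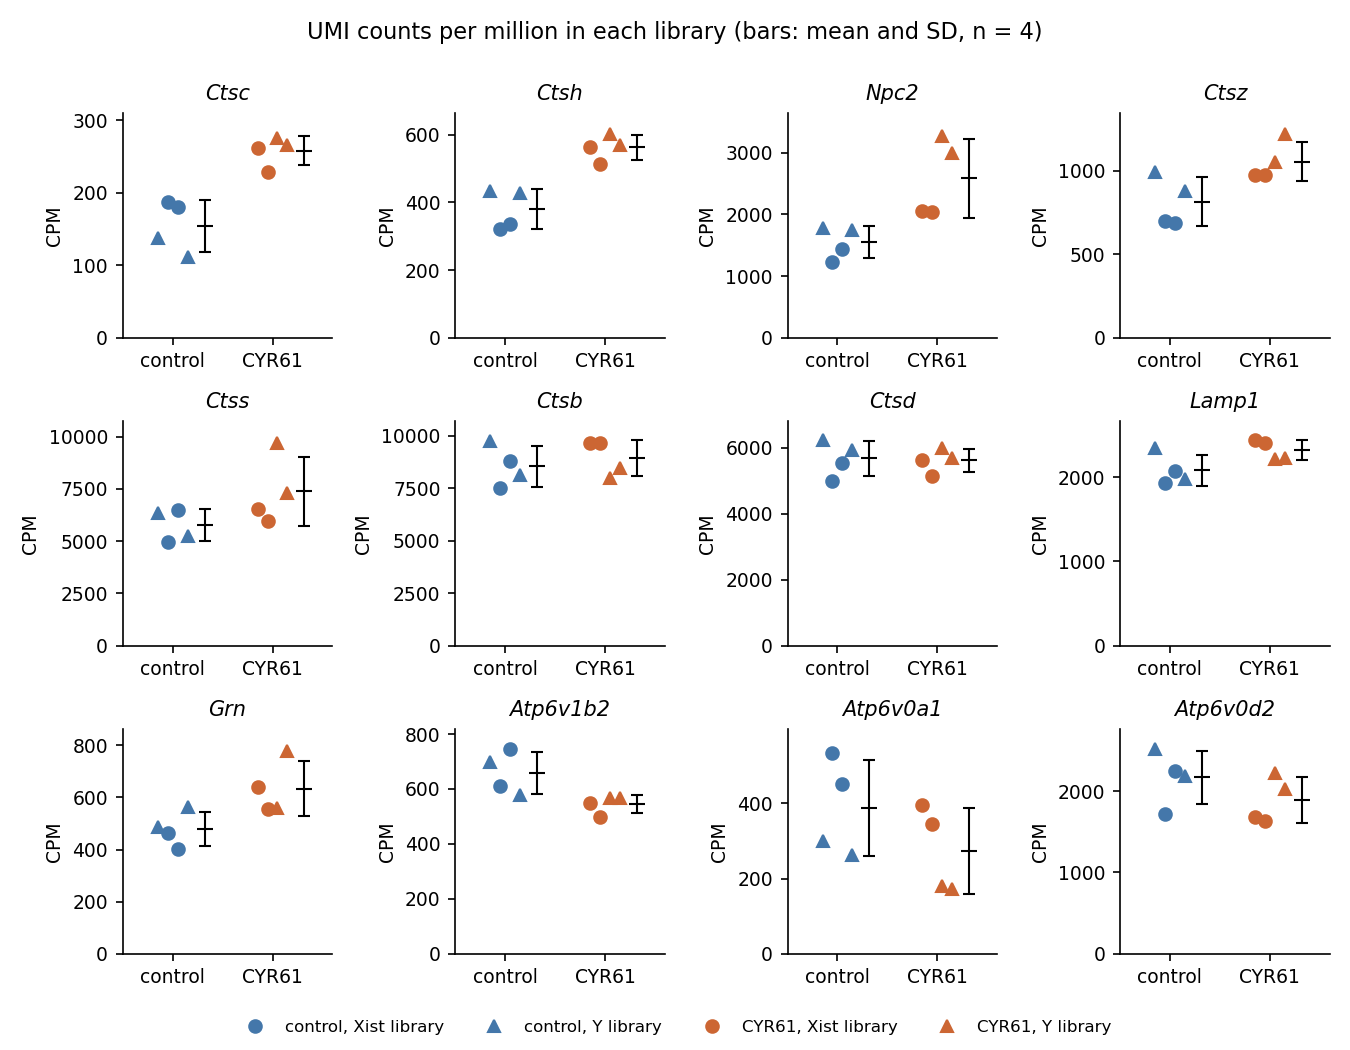
Level of 12 members in each library, in CPM on axes that start at 0. Blue is control and orange CYR61, circles are Xist libraries and triangles Y libraries, and bars give mean and SD (n = 4). The orange points lie above the blue ones without overlap for Ctsc, Ctsh and Npc2, and below them for Atp6v1b2.

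Glycosidases strip sugars from glycoproteins and glycolipids. All 5 had a log2 fold change above 0, with a median of 0.27, and 0 passed the test, with 1 (Gla) at an unadjusted p under 0.05. Over 37 alternative fits the median ran from -0.048 (later date stamp alone) to 0.41 (no filter on low counts). Alpha-galactosidase A (Gla) had 391, 364, 342 and 258 CPM in control libraries 1 to 4 and 422, 386, 436 and 484 CPM in CYR61 libraries 1 to 4, and control library 1 lay above the lowest CYR61 library. In the test Gla had a log2 fold change of 0.38 (SE 0.16, 95% interval 0.030 to 0.74, adjusted p = 0.741). Neuraminidase 1 (Neu1), which removes sialic acid, had 102, 65.4, 56.97 and 81.8 CPM in control libraries 1 to 4 and 74.2, 68.97, 115 and 125 CPM in CYR61 libraries 1 to 4. The Y libraries held the 4 highest values, and the log2 fold change for CYR61 was 0.33 (SE 0.25, 95% interval -0.22 to 0.88, adjusted p = 0.981). Beta-glucuronidase (Gusb) had 357, 445, 474 and 297 CPM in control libraries 1 to 4 and 555, 581, 375 and 335 CPM in CYR61 libraries 1 to 4, with the 4 highest values in the Xist libraries. The test gave Gusb a log2 fold change of 0.27 (SE 0.22, 95% interval -0.21 to 0.75, adjusted p = 0.988). The other 2, Hexa and Man2b1, had log2 fold changes of 0.051 and 0.17.

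The lipid group holds the acid lipase Lipa, the ceramidase Asah1, the saposin precursor Psap, and the cholesterol carriers Npc1 and Npc2. Npc2 (chr12:84754562-84773152), the soluble protein that hands cholesterol to the membrane protein NPC1, had 1773, 1234, 1446 and 1753 CPM in control libraries 1 to 4 and 2052, 2035, 3273 and 2988 CPM in CYR61 libraries 1 to 4. Its lowest CYR61 library exceeded its highest control library, and the 2 highest values were those of the CYR61 Y libraries. The mean was 1551 ± 259 CPM in control against 2587 ± 638 CPM with CYR61 (SD, n = 4). The log2 fold change was 0.76 (SE 0.21, 95% interval 0.30 to 1.22, adjusted p = 0.2098), and 0.75 (SE 0.12, adjusted p = 0.001900) with the split as a term. Over all kept cells it was 0.40 (adjusted p = 0.9999), and without control library 2 it was 0.66 (adjusted p = 0.405).

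Its partner Npc1 had 338, 259, 219.6 and 306 CPM in control libraries 1 to 4 and 256, 288, 406 and 327 CPM in CYR61 libraries 1 to 4, and the groups overlapped. The log2 fold change of Npc1 was 0.21 (SE 0.20, 95% interval -0.22 to 0.64, adjusted p = 0.998). Psap, whose saposins help glycolipid hydrolysis, had 5498, 2603, 3478 and 4663 CPM in control libraries 1 to 4 and 4029, 3893, 3899.8 and 4381 CPM in CYR61 libraries 1 to 4. The control libraries spanned all 4 CYR61 values, and the log2 fold change was 0.020 (SE 0.22, 95% interval -0.46 to 0.50, adjusted p = 0.9999). Lipa had 3540.2, 2411, 3012 and 2624 CPM in control libraries 1 to 4 and 2389.5, 2349.6, 2604 and 2847 CPM in CYR61 libraries 1 to 4, with a log2 fold change of -0.16 (SE 0.17, 95% interval -0.52 to 0.21, adjusted p = 0.9999). Asah1 had a log2 fold change of 0.065.

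Membrane proteins line the lysosome, and progranulin (Grn) is a secreted and lysosomal glycoprotein. Summed over the 5 genes, the level was 3829.7, 3399.8, 3583 and 3486 CPM in control libraries 1 to 4 and 4293, 4115, 3850.2 and 4073 CPM in CYR61 libraries 1 to 4. This was the sole role group whose sums did not overlap, with a narrow gap between control library 1 and CYR61 library 3. The means were 3575 ± 186 CPM in control and 4083 ± 182 CPM with CYR61 (SD, n = 4), a ratio of 1.14, and 0 of the 5 genes passed the test. Grn had 488, 464, 401 and 561 CPM in control libraries 1 to 4 and 639.5, 555, 559 and 779.97 CPM in CYR61 libraries 1 to 4, and control library 4 lay above the 2 lowest CYR61 libraries. For Grn the log2 fold change was 0.43 (SE 0.17, 95% interval 0.054 to 0.81, adjusted p = 0.683), and 0.44 (SE 0.13, adjusted p = 0.135) with the split as a term.

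Lamp1, a main glycoprotein of the lysosomal membrane, had 2339.8, 1931, 2069 and 1981 CPM in control libraries 1 to 4 and 2441, 2404, 2220.1 and 2223 CPM in CYR61 libraries 1 to 4. Control library 1 lay inside the CYR61 range and the other controls below it, with a log2 fold change of 0.19 (SE 0.15, 95% interval -0.13 to 0.51, adjusted p = 0.981). Scarb2, which carries beta-glucocerebrosidase to lysosomes, had 155, 127, 99.7 and 108 CPM in control libraries 1 to 4 and 161, 149, 129.7 and 159.6 CPM in CYR61 libraries 1 to 4 and a log2 fold change of 0.32 (SE 0.17, 95% interval -0.058 to 0.70, adjusted p = 0.897). The groups overlapped through control library 1. For Lamp2 and the calcium channel Mcoln1 the log2 fold changes were 0.18 and -0.11.

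**Figure D4:**
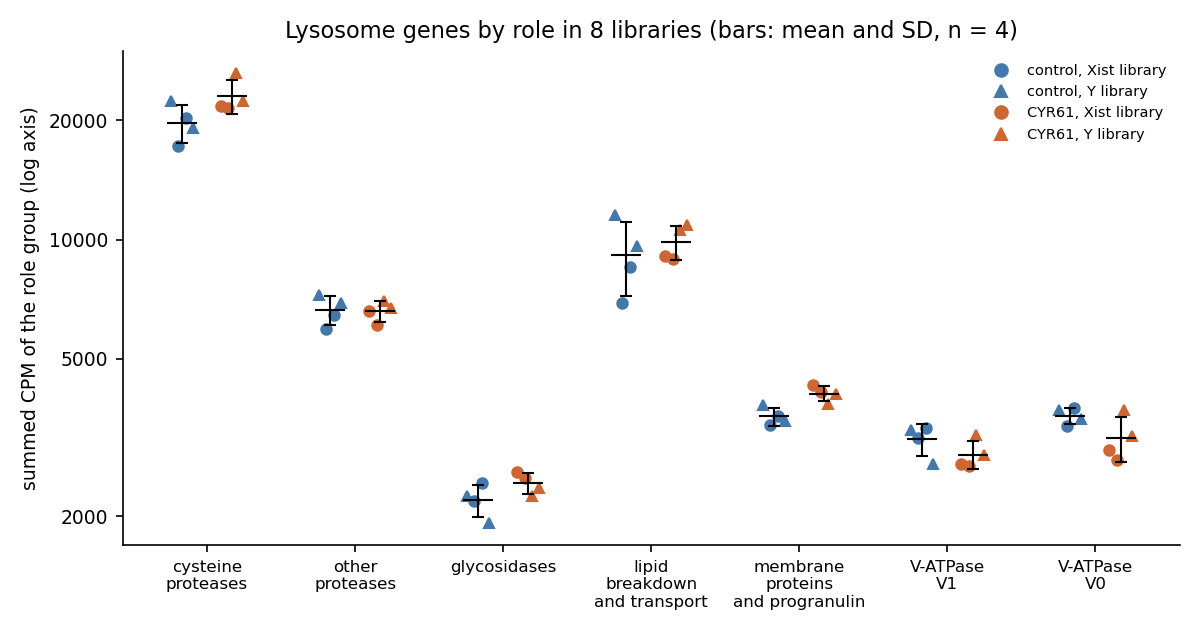
Summed level of each role group in each library, in CPM on a log axis. Blue is control and orange CYR61, circles are Xist libraries and triangles Y libraries, and bars give mean and SD (n = 4). Membrane proteins and progranulin is the group without overlap, while the 2 V-ATPase sectors have lower means with CYR61 and overlap.

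In the V1 sector, 4 of 9 subunits had a log2 fold change above 0 and 5 below, with a median of -0.08, and 0 passed the test. Atp6v1b2, the catalytic-ring B subunit of most tissues, had 697, 611, 745 and 578 CPM in control libraries 1 to 4 and 548, 497, 567 and 567 CPM in CYR61 libraries 1 to 4. Each control library lay above each CYR61 library, with a narrow gap, and the log2 fold change was -0.24 (SE 0.15, 95% interval -0.58 to 0.092, adjusted p = 0.943). The regulatory H subunit Atp6v1h had 173, 263, 191 and 164 CPM in control libraries 1 to 4 and 173, 179.9, 128 and 120.3 CPM in CYR61 libraries 1 to 4, and a log2 fold change of -0.35 (SE 0.20, 95% interval -0.78 to 0.083, adjusted p = 0.9100). Control library 2 was its highest value. The A subunit Atp6v1a, which binds ATP, had 916, 897, 929 and 769 CPM in control libraries 1 to 4 and 739, 717, 954 and 831 CPM in CYR61 libraries 1 to 4, and the groups overlapped. In the test Atp6v1a had a log2 fold change of -0.085 (SE 0.16, 95% interval -0.43 to 0.26, adjusted p = 0.9999). Atp6v1f had 65.8, 67.9, 36.8 and 83.8 CPM in control libraries 1 to 4 and 55.2, 49.4, 123 and 89.8 CPM in CYR61 libraries 1 to 4 and a log2 fold change of 0.32 (SE 0.32, 95% interval -0.38 to 1.02, adjusted p = 0.9999), with the 2 highest values in the CYR61 Y libraries. The remaining V1 subunits had log2 fold changes from -0.15 (Atp6v1d) to 0.72 (Atp6v1g2, at 0 to 11.4 CPM).

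In the V0 sector, 2 of the 8 tested genes had a log2 fold change above 0 and 6 below, with a median of -0.10. Atp6v0a1 (chr11:101009452-101063719), a form of the large a subunit that forms the proton path, had 301, 535, 452 and 263 CPM in control libraries 1 to 4 and 397, 345, 180.2 and 172 CPM in CYR61 libraries 1 to 4. Within each group the Xist libraries lay above the Y libraries, and within either kind of library both controls lay above both CYR61 libraries. The log2 fold change was -0.46 (SE 0.30, 95% interval -1.11 to 0.20, adjusted p = 0.955). With the split as a term it was -0.51 (SE 0.12, adjusted p = 0.0427), and it passed in 0 of the 8 fits with that term that left out 1 library (adjusted p = 0.0582 to 0.196).

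Atp6v0d2, the d subunit form of osteoclasts and some macrophages, had 2516, 1725, 2249 and 2188 CPM in control libraries 1 to 4 and 1687, 1629.8, 2225 and 2025 CPM in CYR61 libraries 1 to 4. Its log2 fold change was -0.17 (SE 0.18, 95% interval -0.56 to 0.22, adjusted p = 0.9999), and the groups overlapped. Atp6v0c encodes the proteolipid of the rotating ring and had 14.3, 8.49, 13.1 and 11.96 CPM in control libraries 1 to 4 and 13.9, 10.98, 21.8 and 15.8 CPM in CYR61 libraries 1 to 4. Its log2 fold change was 0.37 (SE 0.37, 95% interval -0.44 to 1.19, adjusted p = 0.9999). The processed pseudogenes Atp6v0c-ps1 and Atp6v0c-ps2 are close copies of it, so reads may be split between the 3 and their values are uncertain. The other V0 genes had log2 fold changes between -0.27 and 0.026.

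Levels of different genes were set side by side per kilobase of the longest coding transcript in GENCODE vM21. Where along a transcript the UMIs arise is not given in the sources used here, so the scale is approximate. Ctss was highest, at 4259 ± 569.8 in control and 5454 ± 1212 with CYR61 CPM per kb (SD, n = 4), followed by Ctsd at 2672 ± 251 in control and 2645 ± 165 with CYR61. Their ranges over libraries did not overlap, nor did those of Ctsd and of Ctsb, which had 1799.7 ± 204 in control and 1884 ± 180.1 with CYR61. Psap followed at 1528 ± 481 in control and 1524 ± 86.2 with CYR61 and overlapped Ctsb. The genes closest to them in order were Lipa and Lamp1, at 976 ± 167 and 933 ± 81.8 CPM per kb in control. Without division by length the order changed, and Ctsb had the highest mean level in both groups. In CPM, Ctsb stood at 8536 in control and 8935 with CYR61, against 5772 and 7390 for Ctss.

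Where V-ATPase subunits have alternative genes, one form usually held most of the level. Atp6v0d2 had 854 ± 129 in control and 745 ± 111 with CYR61 CPM per kb, against 109 ± 46.6 in control and 91.01 ± 4.55 with CYR61 for the widely expressed Atp6v0d1. The B2 gene Atp6v1b2 had 233 ± 27.2 in control and 193 ± 11.8 with CYR61, whereas Atp6v1b1, a form of kidney and inner ear, had 0.297 and 0.249. Atp6v1c1, Atp6v1e1 and Atp6v1g1 likewise stood at 239.9, 379.7 and 102 CPM per kb in control. Their alternatives Atp6v1c2, Atp6v1e2 and Atp6v1g2 stood at 0.0464, 0.485 and 2.55. The a subunit was the exception: Atp6v0a1 had 96.7 ± 31.9 in control and 68.3 ± 28.5 with CYR61 and Tcirg1, the a3 form of lysosomes and osteoclasts, had 208 ± 141 in control and 178 ± 108 with CYR61. Atp6v0a2 was lower at 9.76 ± 2.05 in control and 9.24 ± 0.821 with CYR61, and Atp6v0a4 had 3 UMIs in all.

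Members also varied with the Xist and Y split. In the fit with both terms, 9 of 42 members differed between Y and Xist libraries, where 15.3% of all genes did. Lgmn, Neu1, Npc1, Npc2 and Atp6v1f were higher in the Y libraries, and Gusb, Atp6v1g2, Atp6v1h and Atp6v0a1 lower. The log2 difference of Atp6v0a1 was -0.93 (adjusted p = 2.59e-04), that of Neu1 0.69 (adjusted p = 0.00664) and that of Gusb -0.57 (adjusted p = 0.00643). For Npc2 it was 0.52 (adjusted p = 0.0103), beside the CYR61 difference given above. Within the 4 Xist libraries alone (2 against 2, edgeR) the CYR61 log2 fold changes of Ctsc, Ctsh and Npc2 were 0.52 (adjusted p = 0.0816), 0.81 (adjusted p = 0.0357) and 0.71 (adjusted p = 0.0634). Within the Y libraries they were 1.13 (adjusted p = 0.00151), 0.46 (adjusted p = 0.4401) and 0.85 (adjusted p = 0.00483). All 6 values were above 0. In these genes all CYR61 libraries lay above all control libraries, so the shared sign was fixed beforehand and is no further support. These fits called 1.09% of all genes higher and 1.97% lower in the Xist libraries, and 1.64% higher and 0.207% lower in the Y libraries.

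Each date stamp in the files held 2 control and 2 CYR61 libraries, numbers 1 and 2 in the earlier and 3 and 4 in the later. The difference of the CYR61 effect between the stamps, tested as an interaction in edgeR, passed for 0 of the 42 members and for 0% of all genes. At an unadjusted p under 0.05 it held for 4 members and 10.1% of all genes. The smallest p was that of Atp6v1g1 (interaction 1.14 on the log2 scale, later minus earlier, adjusted p = 0.392). Atp6v1g1 had 147, 123, 97.3 and 94.7 CPM in control libraries 1 to 4 and 97.7, 98.04, 163 and 167 CPM in CYR61 libraries 1 to 4, so its CYR61 libraries were low in the earlier stamp and high in the later one. The next were Atp6v0c-ps2 and Neu1, with adjusted p = 0.403 and 0.488. The earlier stamp's CYR61 libraries were both of the Xist kind and the later stamp's both of the Y kind, so the interaction and the split cannot be fully told apart.

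Members were spread over nearly all cells. The median share of a cell's UMIs from all members was 5.68, 4.29, 4.73 and 4.76% in control libraries 1 to 4 and 5.39, 5.05, 6.200 and 5.77% in CYR61 libraries 1 to 4, and 0% of cells had none. The highest median was that of CYR61 library 3 and the lowest that of control library 2. V-ATPase members took medians of 0.611, 0.5505, 0.674 and 0.563% in control libraries 1 to 4 and 0.518, 0.488, 0.632 and 0.532% in CYR61 libraries 1 to 4. Between 1.27% and 2.72% of cells had no V-ATPase UMI.

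**Figure D5:**
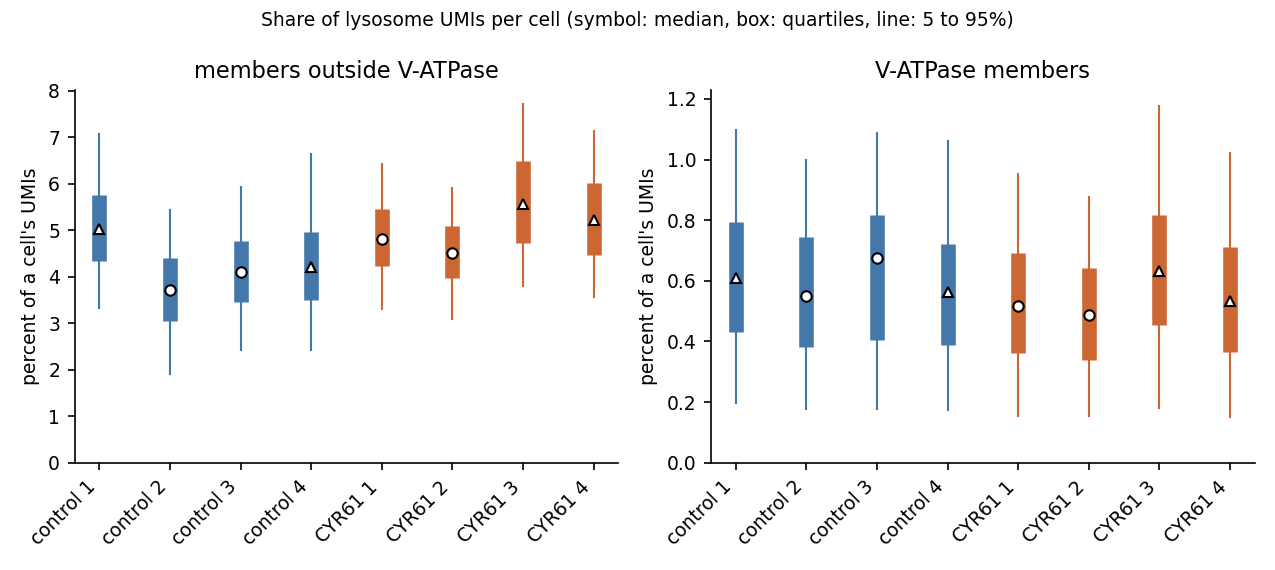
Share of a cell's UMIs (percent, y axis) from members outside the V-ATPase (left) and from V-ATPase members (right), by library. Symbols are medians over cells (circles Xist, triangles Y libraries), boxes quartiles and lines the 5th to 95th percentiles. Medians outside the V-ATPase run from 3.70% in control library 2 to 5.55% in CYR61 library 3, and the spread between cells of 1 library is wider than the shift between groups.

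A small number of cells carried neutrophil RNA: in 139 of 9196 cells the neutrophil markers held at least 1% of UMIs, and 228 cells lay within a factor of 2 of that limit. In each of the 8 libraries the members summed lower in these cells than in the others, though 3 control libraries held only 3 to 6 such cells. The gap was wide in CYR61 library 1, with 16532 against 50171 CPM, and narrow in CYR61 library 3, which held 47 of the 139 cells, with 52985 against 57151 CPM. Pooled over libraries, Ctsc stood at 116 against 228 CPM, Ctsh at 261 against 516 CPM and Npc2 at 1431 against 2117 CPM. Without these cells the log2 fold changes were 0.82 (adjusted p = 0.0647) for Ctsc, 0.62 (adjusted p = 0.179) for Ctsh and 0.79 (adjusted p = 0.1704) for Npc2.

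Members with the E-box had a median closer to 0 than those without it, and the values of each set lay on both sides of 0. The 7 holders of TCACGTGA had a median log2 fold change of 0.013 (-0.23 to 0.38) and the 11 holders of CACGTG one of 0.025. The 20 tested members whose matched windows held no CACGTG had a median of 0.29 (-0.46 to 0.78). Ctsd, Ctsa and Atp6v1a, whose stretches are printed above, had log2 fold changes of 0.013, 0.025 and -0.085. The sets were not matched by role. The holders included the V-ATPase genes Atp6v0b, Atp6v0d1, Atp6v0e and Atp6v1a and no lipid gene. The set without the motif included Ctsc, Npc2 and the V-ATPase gene Atp6v0a1. These are descriptions of few genes, with no test, and motif and role cannot be told apart here. Of the factors that bind that motif, those named above had log2 fold changes of 0.12 for Tfeb, 0.12 for Tfe3 and 0.022 for Mitf. None of the 3 passed the test (adjusted p = 0.9999, 0.9999 and 0.9999).

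Among 125 other lysosomal genes in lists of proteases, hydrolases, membrane proteins, V-ATPase partners, sorting factors, docking proteins of mTORC1 and cathepsin inhibitors, 112 were tested. edgeR and DESeq2 each called 0 of them, where edgeR called 1.16% of all genes and DESeq2 1.53% higher and 0.24% lower. At an unadjusted p under 0.05 edgeR had 5 higher and 1 lower, against 3.45% and 2.74% of all genes. The 112 genes split into 60 above 0 and 52 below, with a median of 0.018. The gene with the smallest p was Mcoln2, an endolysosomal cation channel, with 29.97, 21.2, 11.9 and 11.96 CPM in control libraries 1 to 4 and 38.04, 31.6, 46.1 and 32.9 CPM in CYR61 libraries 1 to 4. Its groups did not overlap, and its log2 fold change was 0.96 (SE 0.32, 95% interval 0.26 to 1.65, adjusted p = 0.427). Lamtor3, a subunit of the Ragulator complex, had 53.8, 70.5, 96.1 and 59.8 CPM in control libraries 1 to 4 and 49.8, 53.4, 31.3 and 44.9 CPM in CYR61 libraries 1 to 4, with each CYR61 library below each control library. Its log2 fold change was -0.58 (SE 0.25, 95% interval -1.13 to -0.037, adjusted p = 0.762). In the remaining lists the smallest p belonged to Ctso (0.43), Plekhm1 (0.48), Rnasek (-0.19) and the inhibitor Cst3 (0.28), given as log2 fold changes, with adjusted p = 0.847, 0.741, 0.9999 and 0.943. With the split as a term, DESeq2 called 3 of the 112, where it called 2.68% of all genes higher and 0.998% lower. Among those called, Laptm4a was higher and Igf2r lower.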

How the data were processed

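The deposited tables hold UMI counts per gene and cell barcode for 8 libraries, 5000 barcodes each, whole numbers as the authors deposited them; total counts per library ran from 1379637 to 16318946. The submitters' processing notes name mm10. For the aligner, counter, annotation and cell calling, nothing was given in the sources used here. The members and gene lists were chosen with earlier results of these data known.

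Cells were filtered and assigned to a home library as described above, and counts were summed per library. edgeR 4.0.16 (TMM, filterByExpr, quasi-likelihood test, Benjamini-Hochberg adjustment over all genes tested) was run in R 4.3.3 with CYR61 as the sole term, and checked on simulated data. DESeq2 1.42.0, other scalings, filters, cell sets, blocks and left-out libraries were alternatives. Values per library are given for called members, the 3 members of each role group with the smallest p, and Ctsb, Ctsd, Ctss, Ctsl, Lamp1, Grn, Psap, Atp6v0d2 and Atp6v1a. Other lists are represented by their gene with the smallest p, except where that gene is not reported here. Gene positions follow GENCODE vM21 and promoters RefSeq on GRCm38.p6. Neutrophil-marked cells are a range of a score, not a type, and no doublets were removed.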

Additional observations from a re-analysis of the deposited data

How the results depend on the processing

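Of 24 alternatives fixed at the outset and 13 added after seeing the data (all on the Xist and Y split), DESeq2 called 3 members higher, no filter on low counts 2, the split as a term 3 and at most 10% mitochondrial UMIs 1; leaving out a library called 0 to 0. The added ones called 3 without neutrophil-marked cells, 2 with barcodes listed in 1 table, 6 with DESeq2, 1 in Xist and 2 in Y libraries alone, and 2 to 5 when leaving out a library. The share of all genes called higher was 0.679% with no filter, 1.05% with at most 10% mitochondrial UMIs, 2.06% without neutrophil-marked cells, 1.85% with barcodes listed in 1 table, 1.09% (and 1.97% lower) in Xist and 1.64% (and 0.207% lower) in Y libraries alone. With 1 library left out, that share was 1.46% to 2.05% with the split term and 0.793% to 1.19% without it. For members lower the count was 1 with the split as a term, by edgeR and by DESeq2, and 0 otherwise. With the split term and 1 library left out, Ctsc passed in 7 of 8 fits (not without CYR61 library 4), Ctsh in 7 of 8 (not without CYR61 library 1) and Npc2 in 8 of 8; with that term on barcodes listed in 1 table Npc2 passed and Ctsc and Ctsh did not.

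The median log2 fold change of all members moved from 0.12 to 0.23 with no filter and 0.20 with barcodes listed in 1 table. That of members outside the V-ATPase moved from 0.21 to 0.32 with no filter, 0.36 in the later date stamp, 0.082 with all kept cells and 0.32 in Xist libraries alone. The V-ATPase median turned from -0.08 to 0.035 with no filter and 0.042 in Y libraries alone. No filter also moved the median of all genes from -0.02 to 0.09. The cause of these changes was not tested. All genes called higher numbered 117, and from 0 with all kept cells to 279 with the split in DESeq2; those called lower numbered 4, and from 0 to 239 in the Xist libraries alone.

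Of 26 members followed, 17 kept their sign throughout. Signs of the other 9 turned, none past the threshold: with library totals Ctsa (-0.011), Ctsd (-0.021) and Psap (-0.0095); with no filter Atp6v1a (0.027); in the earlier stamp Atp6v1f (-0.23), Neu1 (-0.14) and Npc1 (-0.024); in the later stamp Atp6v1a (0.041), Ctsa (-0.023), Ctsb (-0.071), Ctsd (-0.00073), Gusb (-0.15) and Psap (-0.0070); with all kept cells Ctsb (-0.036), Ctsd (-0.021) and Psap (-0.10); with at least 500 genes Ctsd (-0.018); in Y libraries Atp6v1a (0.10), Ctsb (-0.10), Ctsd (-0.035) and Psap (-0.27). Leaving out control 2 turned Ctsd (-0.049) and Psap (-0.14), control 3 Psap (-0.018) and CYR61 4 Ctsa (-0.0079) and Psap (-0.023); over these leave-outs Ctsa ran from -0.0079 to 0.11, Ctsd from -0.049 to 0.11 and Psap from -0.14 to 0.17. With the split term, leaving out control 2 turned Ctsb (-0.0031), Ctsd (-0.034) and Psap (-0.091), CYR61 1 Ctsd (-0.0031) and CYR61 4 Ctsa (-0.0059).

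Groups share replicate numbers, and same-numbered libraries had correlations of deviations of -0.198, 0.324, -0.0874 and 0.314. Control libraries 2 and 3 correlated positively only with CYR61 libraries 1 and 2, all of the Xist kind. Control libraries 1 and 4 correlated positively only with CYR61 libraries 3 and 4, all of the Y kind. The correlations follow the split, so they cannot show whether the numbers pair libraries. A fit with the replicate block called 0 members and 112 genes in all, and gave medians of 0.12 for all members, 0.20 outside the V-ATPase and -0.08 for the V-ATPase. The median 95% interval of a member reached 0.41 on the log2 scale either side of its estimate (all genes 0.70), which limits what these libraries can show, and the smallest library held 842528 UMIs.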

Other observations

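Other lysosomal genes also differed between the Y and Xist libraries in the fit with both terms: 29 of the 112 tested, 19 of them higher in the Y libraries, where 15.3% of all genes differed. The genes named here were chosen after their values were seen. Tcirg1, the a3 form of the V0 a subunit, had 605, 414, 266 and 1240.4 CPM in control libraries 1 to 4 and 288, 245, 906 and 731 CPM in CYR61 libraries 1 to 4. It was 1.55 (adjusted p = 2.45e-04) on the log2 scale in Y minus Xist libraries, the opposite sign to Atp6v0a1 at -0.93 (adjusted p = 2.59e-04). Flcn, a regulator of mTORC1 at the lysosome, had 113, 51.8, 17.8 and 162 CPM in control libraries 1 to 4 and 35.1, 34.4, 112 and 109 CPM in CYR61 libraries 1 to 4, a log2 difference of 1.79 (adjusted p = 1.89e-04). Slc11a1, the phagosomal metal transporter, had a log2 difference of 1.05 (adjusted p = 2.16e-04), and the chloride exchanger Clcn7 one of 0.73 (adjusted p = 0.00362). The acid phosphatase Acp2 had 181, 238, 292 and 142 CPM in control libraries 1 to 4 and 333, 326, 172 and 179 CPM in CYR61 libraries 1 to 4, a log2 difference of -0.80 (adjusted p = 0.00165). For Tcirg1, Flcn and Slc11a1 the CYR61 log2 fold changes were -0.21, -0.27 and 0.036, with adjusted p = 0.9999, 0.9999 and 0.9999.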
